A study of Mus musculus with 16 samples.

Results

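The collagen genes are the 44 of the 24341 genes listed in each library whose symbol is Col, a number, the letter a and a further number, such as Col1a1. They were chosen by name, not by level. By the structure of the protein, 11 code fibrillar chains, 6 code chains of the type IV network, 6 code chains of type VI and 2 code the multiplexins XV and XVIII. A further 9 are fibril-associated, 4 are transmembrane collagens and 6 are short chain, anchoring or other collagens.

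The cells came from muscle of C57BL/6 mice aged 2 to 3 months that was digested with collagenase and dispase. Cells with alpha-7 integrin and CD34 and without Sca-1, CD45, CD11b or CD31 were sorted, the surface profile used for muscle stem cells. The groups p53WT and p53KO (hind limb muscles), p53WT_3dai and p53KO_3dai (tibialis anterior) hold 3 libraries each, and p53WT_G2 and p53KO_G2 (hind limb muscles) hold 2 each. The genotype is labelled only as p53 wild type or p53 knockout (allele, any Cre driver and any pooling of animals: not given in the sources used here). The labels do not explain the suffixes 3dai and G2, so groups are called by them, and p53WT and p53KO without a suffix are called the groups with no suffix. The title of the series names a model of Duchenne muscular dystrophy, but no Dmd genotype is labelled for these libraries. A 3dai difference is also a difference between muscles, and state and muscle cannot be told apart.

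Collagens are secreted proteins whose chains wind in triplets. Fibrillar collagens (types I, III and V among them) form the fibres of the interstitial matrix, type IV forms the sheet of the basement membrane that wraps each muscle fibre, and type VI links the sheet to the fibres. Muscle stem cells lie beneath that basement membrane and themselves transcribe collagen genes. In mouse muscle, collagen V is known to hold these cells in quiescence through the calcitonin receptor Calcr, and collagen VI to support their self-renewal.

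Values are FPKM, the authors' fragment counts scaled to transcript length and library size, so levels of different genes can be set side by side. Sequencing depth is unknown from the files; FPKM sums per library ran from 423303 to 616485, and 10240.0 to 11574 genes reached 1 FPKM. The sort genes Cd34 (27.1 to 140.3 FPKM) and Itga7 (81.1 to 317) were present in every library, as was Pax7 (5.22 to 97.1), the transcription factor of muscle stem cells. Pecam1, Ptprc, Itgam and Ly6a, which code CD31, CD45, CD11b and Sca-1, reached at most 2.09, 0.00898, 0.286 and 6.60 FPKM. Within each suffix all p53KO libraries held less Trp53 transcript than the lowest p53WT library, but none was free of it. With no suffix they held 6.34 to 12.2 FPKM, against 39.9 to 53.9 in p53WT. In 3dai they held 34.9 to 45.7 FPKM against 134 to 161, and in G2 16.7 to 19.8 against 59.9 to 71.0. The library p53KO_3dai replicate 1 stood apart from the other libraries of its group: of 36 collagen genes tested it was the highest of the 3 libraries in 20, against 5 and 8 for replicates 2 and 3. It also held more Schwann cell marker transcript (summed FPKM of 10 markers 74.1, against 14.6 and 8.80) and more pericyte marker transcript (64.6, against 31.1 and 25.2). In p53WT_3dai these sums were 48.5, 58.6 and 37.4, and 28.9, 29.5 and 51.1. Of the Schwann sum, Ngfr alone gave 31.9 FPKM in replicate 1, 4.17 and 3.21 in replicates 2 and 3 and 29.1 to 48.8 in p53WT_3dai. The mean log2(FPKM + 1) of the 10 Schwann markers was 2.40 in replicate 1, 0.963 and 0.718 in replicates 2 and 3, and 1.11 to 1.41 in p53WT_3dai. By another sign replicates 2 and 3 stood apart: the short RNA Mir6236 took 9.81% and 10.1% of their FPKM sums, against 1.31% in replicate 1 and at most 2.36% in any other library. The counts and the leading genes of that group are therefore also given without replicate 1. The labels do not tell whether replicates came from different animals, so p-values measure only the spread between these samples, which may be technical.

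Promoter sequence is shown for genes on which the results turn: Col1a2, which held a high level in all groups, Col15a1, which had the largest fall on the log2(FPKM + 1) scale, and Col8a1, which rose in all state comparisons. Each run is the 150 bases before the RefSeq start site (build GRCm38.p6), 5′ to 3′ on the strand of the gene, with CCAAT and GGGCGG (or ATTGG and CCGCCC, the same motifs on the other strand) in capitals.
Col1a2, chr6:4505468-4505617, plus strand: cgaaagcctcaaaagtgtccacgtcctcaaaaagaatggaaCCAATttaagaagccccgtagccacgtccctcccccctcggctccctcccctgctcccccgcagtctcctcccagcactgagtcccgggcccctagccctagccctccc
Col15a1, chr4:47207862-47208011, plus strand: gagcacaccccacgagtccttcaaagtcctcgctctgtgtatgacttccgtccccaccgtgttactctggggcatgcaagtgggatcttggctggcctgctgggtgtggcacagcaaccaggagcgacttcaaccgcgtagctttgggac
Col8a1, chr16:57754738-57754887, minus strand: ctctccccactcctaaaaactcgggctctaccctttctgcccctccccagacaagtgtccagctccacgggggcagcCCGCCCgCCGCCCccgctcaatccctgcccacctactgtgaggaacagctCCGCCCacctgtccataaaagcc
In these windows Col1a2 held 1 CCAAT match, Col8a1 held 3 GC box matches, and Col15a1 held neither motif.

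The genes of the 2 main type IV chains lie head to head on chromosome 8: Col4a1 runs on the minus strand (chr8:11198423-11312826) and Col4a2 on the plus strand (chr8:11312829-11449287), with 2 bases between the loci as deposited (mm10). Other neighbours are Col3a1 and Col5a2 on chromosome 1, 24624 bases apart, and Col6a2 and Col6a1 on chromosome 10, 85387 bases apart. Over the 250 bases before the start, 35 of the 44 genes had an entry, with 38 windows. The GC box letters GGGCGG or CCGCCC were in 57.9% of these windows and in 32.8% of all 32841 promoter windows. CCAAT or ATTGG was in 34.2% against 33.9%, and TATAAA or TTTATA in 13.2% against 12.4%. TGGGAA or TTCCCA, the core letters bound by the Notch effector RBPJ, were in 31.6% against 21.6%. No motif's letters lie within those of another, and a match is a description of the letters only.

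Col3a1, Col1a2, Col4a1, Col1a1, Col6a1 and Col5a2 were the most abundant collagen transcripts with no suffix. By group mean, 28 of the 44 genes reached 1 FPKM in p53WT, 16 reached 10 FPKM and 3 reached 100 FPKM (32, 16 and 5 in p53KO). In 3dai, 17 genes reached 1 FPKM in each genotype, 5 (p53WT_3dai) and 4 (p53KO_3dai) reached 10 FPKM, and 0 reached 100 FPKM. In G2 29 and 30 reached 1 FPKM, 19 and 18 reached 10 FPKM, and 6 and 5 reached 100 FPKM. Collagens summed to 0.196%, 0.186% and 0.314% of all FPKM in the p53WT libraries and to 0.253%, 0.232% and 0.264% in p53KO. That share was 0.0456%, 0.0452% and 0.0410% in p53WT_3dai and 0.0535%, 0.0445% and 0.0416% in p53KO_3dai. It was 0.375% and 0.370% in p53WT_G2 and 0.316% and 0.380% in p53KO_G2. The shares of the 3dai libraries lay below those of all other libraries, and those of the G2 libraries above all others, with p53KO_G2 replicate 1 closest to p53WT replicate 3.

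**Figure D1:**
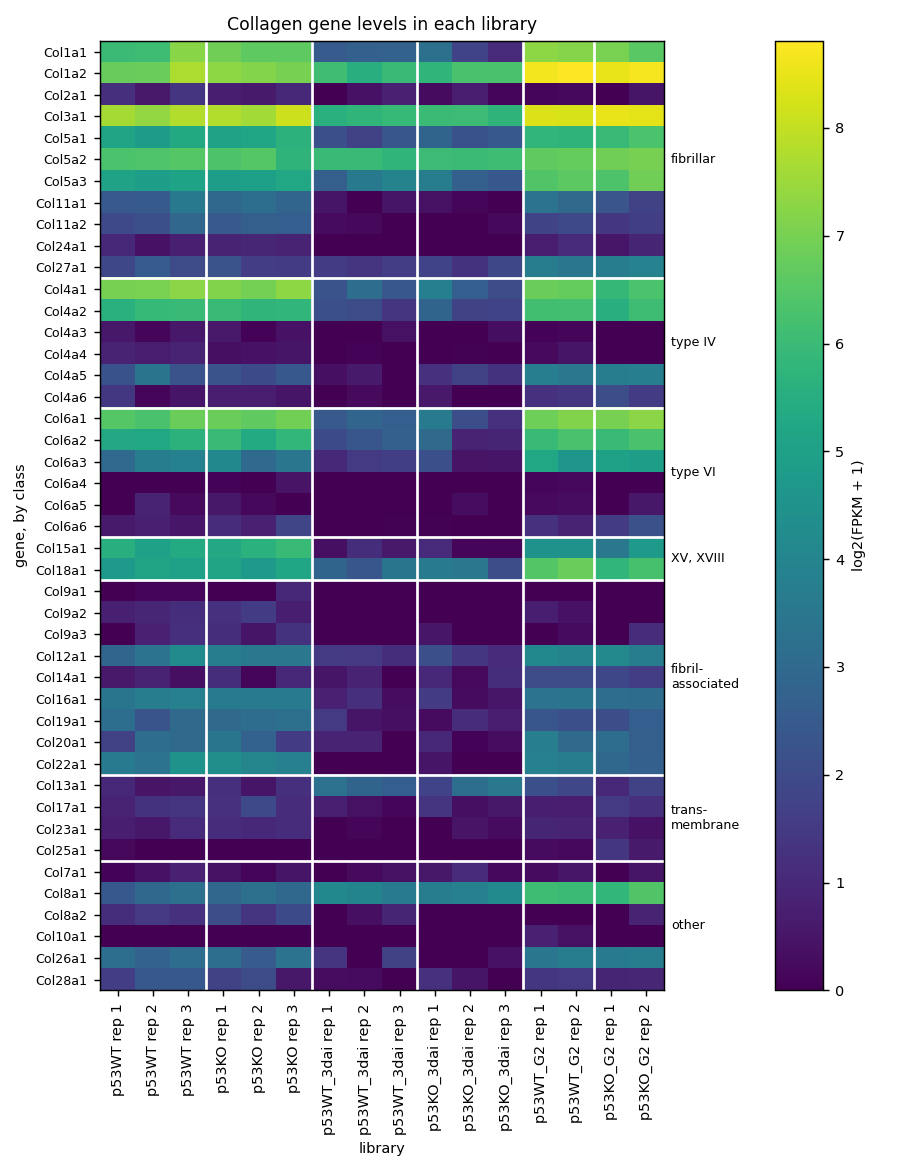
Levels of the 44 collagen genes (rows, by structural class) in the 16 libraries (columns, by group) as log2(FPKM + 1), by colour. The 6 columns of 3dai are dark in most rows, while Col1a2, Col3a1 and Col5a2 keep a high level in every column.

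Which collagen genes differed between 3dai cells and cells with no suffix? Most of the collagens that could be tested were lower in 3dai, in both genotypes, with the largest differences among Col15a1, Col4a1, Col4a2, Col6a1, Col6a2, Col22a1 and Col1a1. Col8a1 and Col13a1 were higher. A gene was tested if it reached 1 FPKM in at least 2 libraries, which 36 collagen genes did. It is called if limma's moderated test gave an adjusted p under 0.05 (Benjamini-Hochberg, over 12954 genes). In p53WT 27 of the 36 were called lower and 2 higher, where 20.9% and 31.8% of all genes tested were. In p53KO 25 were called lower and 2 higher, where 22.7% and 30.4% were. The median difference was -1.98 and -1.94 on the log2(FPKM + 1) scale, a scale that understates changes of genes with low values. Over all genes it was 0.23 and 0.14, so single collagen differences stand against that shift. The 2 genotypes share no library, and 24 genes were lower in both, 88.9% of those of p53WT and 96.0% of those of p53KO, while the higher genes were the same 2. Without p53KO_3dai replicate 1 the p53KO counts were 26 lower and 2 higher, where 2991 and 3728 of all 12954 genes were. The median difference of the 36 was then -2.09. With replicate 1 as the only library of its group it was -1.41, in a fit in which the lone library is assumed to vary like the other groups. Without replicate 1 the differences of the leading genes were larger: Col15a1 -5.48, Col1a1 -5.28, Col6a1 -5.13, Col6a2 -4.83 and Col4a1 -4.80. Of the 27 genes called in p53KO 26 were still called without it, the exception being Col23a1 (-0.72, adjusted p = 0.0506), and Col17a1 and Col28a1 were gained. The 8 genes not tested (Col4a3, Col4a4, Col6a4, Col6a5, Col7a1, Col9a1, Col10a1 and Col25a1) reached at most 1.65 FPKM in any library.

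Markers of several other cell types were lower in 3dai too. Of 10 tenocyte markers 9 were called lower and 1 higher in 3dai in each genotype, and their summed level was 259 to 497 FPKM with no suffix and 36.0 to 86.4 in 3dai. Pericyte and smooth muscle markers were lower in 9 of 10 in each genotype (592 to 1754 against 25.2 to 64.6 FPKM). Schwann cell markers were lower in 9 and 8 of 10, with 1 and 0 higher (417 to 545 against 8.80 to 74.1 FPKM). Of the 9 tested markers of fibro-adipogenic cells, 7 were lower in p53WT and 6 in p53KO (431 to 759 against 25.6 to 55.8 FPKM), although Pdgfra and Ly6a, which define these cells, reached only 2.44 and 6.60 FPKM anywhere. Of that sum, Dcn, a proteoglycan also on the list of collagen-binding proteins below, was the largest item at up to 625 FPKM. Among muscle stem cell markers 7 of 10 were lower and 1 higher in each genotype. Endothelial markers were lower in 4 and 3 of 8 tested and higher in 1 and 0. Mature fibre markers did not follow: 2 and 3 of 9 were lower and 1 and 0 higher, and their sums overlapped (24.0 to 111.8 FPKM with no suffix, 34.4 to 110 in 3dai). Csf1r, which defines macrophages, was listed at 0 in all libraries, and 1 macrophage marker could be tested and was not called. The part of these cell types in the collagen differences was not tested, and in bulk samples fewer cells of a type and less RNA per cell cannot be told apart.

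Col15a1 codes the core of a multiplexin collagen of the basement membrane zone (chr4:47208012-47313165). It stood at 46.4, 32.1 and 40.4 FPKM in p53WT and at 0.279, 1.23 and 0.534 in p53WT_3dai. In p53KO it stood at 39.1, 47.9 and 61.1 FPKM, and in p53KO_3dai at 1.07, 0.0982 and 0.124. The groups were far apart in both genotypes, with every 3dai library under 2 FPKM. On the log2(FPKM + 1) scale the fall was the largest of all collagens in each genotype (p53WT -4.62, SE 0.35, adjusted p = 5.07e-08; p53KO -5.18, SE 0.35, adjusted p = 1.50e-08). That rank may depend on the pseudocount, as does the fall of Col22a1 given below. Col18a1, the other multiplexin and the source of the fragment endostatin, stood at 25.4, 34.7 and 31.9 FPKM in p53WT and 6.14, 4.15 and 9.62 in p53WT_3dai. Its p53KO values were 34.1, 26.3 and 35.6 FPKM with no suffix and 11.0, 10.4 and 3.26 in 3dai. It fell without overlap in both genotypes, by 2.10 and 1.97 on the log2 scale.

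The type IV pair fell together. Col4a1 stood at 128, 129 and 155 FPKM in p53WT and 3.80, 7.97 and 4.31 in p53WT_3dai, and at 141, 125 and 156 in p53KO and 13.0, 5.22 and 3.12 in p53KO_3dai. Col4a2 stood at 47.3, 58.2 and 60.8 FPKM in p53WT and 3.44, 3.06 and 1.57 in p53WT_3dai, and at 62.4, 53.3 and 55.3 in p53KO and 6.15, 2.29 and 2.45 in p53KO_3dai. For both chains the highest 3dai library was p53KO_3dai replicate 1, still well under every library with no suffix. The log2 difference of Col4a1 was -4.50 in p53WT (SE 0.34, adjusted p = 5.90e-08) and -4.31 in p53KO (SE 0.34, adjusted p = 8.45e-08). That of Col4a2 was -3.97 in p53WT (SE 0.29, adjusted p = 3.77e-08) and -3.74 in p53KO. The ratio of Col4a1 to Col4a2 was 2.22 to 2.83 in the libraries with no suffix and 1.11 to 2.74 in 3dai, ranges that overlap.

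Col4a5, a further type IV chain, was low: 3.64, 9.48 and 3.80 FPKM in p53WT, 0.290, 0.552 and 0 in p53WT_3dai, 3.79, 2.96 and 4.38 in p53KO and 1.40, 2.35 and 1.43 in p53KO_3dai. It fell in p53WT by 2.29 on the log2 scale and was not called in p53KO (-0.80), though the groups did not overlap there either and median-of-ratios scaling called it (-1.04, adjusted p = 0.0156). The difference between these effects was not called (interaction 1.49, SE 0.47, adjusted p = 0.804). Col4a6, the last chain tested, did not exceed 3.22 FPKM and was not called in 3dai in either genotype. Without p53WT replicate 2 it was called lower in p53WT (-0.90, adjusted p = 0.0425).

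The 3 chains of the main type VI trimer fell in both genotypes. Col6a1 stood at 88.7, 76.0 and 112 FPKM in p53WT and 4.48, 6.30 and 5.27 in p53WT_3dai, and at 113, 99.3 and 122 in p53KO and 11.6, 3.32 and 1.37 in p53KO_3dai. Its log2 difference was -3.87 in p53WT (SE 0.41, adjusted p = 1.47e-06) and -4.47 in p53KO (SE 0.41, adjusted p = 3.21e-07). Col6a2 stood at 38.8, 38.2 and 49.2 FPKM in p53WT and 2.98, 4.12 and 5.54 in p53WT_3dai, and at 61.1, 40.4 and 56.2 in p53KO and 7.28, 0.823 and 0.885 in p53KO_3dai. Within p53KO_3dai the libraries were spread widely, replicate 1 lying above and replicates 2 and 3 below all p53WT_3dai libraries for both chains. Col6a2 fell by 3.07 and 4.11 on the log2 scale. Col6a3, the long chain of the same trimer, stood at 7.10, 12.3 and 13.7 FPKM in p53WT and 0.953, 1.85 and 2.12 in p53WT_3dai, and at 16.2, 7.00 and 9.95 in p53KO and 3.40, 0.367 and 0.397 in p53KO_3dai. It fell by 2.17 and 2.50. Col6a6, an alternative chain, was called lower in p53KO alone in the fit as reported (-1.23), and stood at no more than 3.53 FPKM in any library. In p53WT it was called lower with a pseudocount of 0.1 (-2.55, adjusted p = 0.00449) and with only the groups compared (-0.63, adjusted p = 0.0113).

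Within type I the 2 chains behaved unequally. Col1a1 stood at 63.9, 66.9 and 149.6 FPKM in p53WT and 4.83, 5.45 and 5.89 in p53WT_3dai, and at 118, 97.1 and 98.4 in p53KO and 8.61, 2.45 and 1.12 in p53KO_3dai. Its log2 difference was -3.77 in p53WT (SE 0.42, adjusted p = 2.65e-06) and -4.67 in p53KO (SE 0.42, adjusted p = 3.01e-07). Col1a2, its partner in the type I trimer, stood at 107, 109 and 212 FPKM in p53WT and 68.2, 45.9 and 61.3 in p53WT_3dai, and at 158, 142 and 128 in p53KO and 53.4, 76.5 and 77.6 in p53KO_3dai. Col1a2 also fell without overlap in both genotypes, but by 1.21 and 1.05 on the log2 scale. In p53WT the ratio of Col1a1 to Col1a2 was 0.598, 0.613 and 0.706, and in p53KO 0.749, 0.685 and 0.767. In p53WT_3dai it was 0.0708, 0.119 and 0.0961, and in p53KO_3dai 0.161, 0.0320 and 0.0144, so no 3dai library came near those with no suffix. The ratio is given as a description with no test.

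Col3a1, the chain of the homotrimer type III, stood at 196, 166 and 219.6 FPKM in p53WT and 47.1, 53.8 and 58.4 in p53WT_3dai, and at 220.3, 193 and 278 in p53KO and 62.9, 64.2 and 52.3 in p53KO_3dai. It fell by 1.84 and 1.92 on the log2 scale, without overlap, and remained among the highest collagens of 3dai cells with Col1a2 and Col5a2.

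The chains of type V also differed from each other. Col5a1 stood at 34.4, 27.2 and 39.7 FPKM in p53WT and 3.39, 2.26 and 4.17 in p53WT_3dai, and at 32.6, 36.1 and 49.7 in p53KO and 6.21, 3.64 and 4.43 in p53KO_3dai. It fell by 3.03 and 2.81. Col5a2, its usual partner, stood at 78.1, 81.9 and 88.2 FPKM in p53WT and 61.1, 62.4 and 53.6 in p53WT_3dai, and at 80.4, 89.7 and 52.0 in p53KO and 64.5, 63.1 and 65.6 in p53KO_3dai. In p53WT Col5a2 was called lower by 0.48 (adjusted p = 0.0339), and the call was lost without p53WT replicate 2 or 3 or any of the 3 p53WT_3dai libraries (adjusted p = 0.0510 to 0.106). In p53KO it was not called (-0.16), and p53KO replicate 3 lay below all p53KO_3dai libraries. There it was called lower without p53KO replicate 3 (-0.39, adjusted p = 0.0277), under quantile normalization (-0.48, adjusted p = 0.0210), median-of-ratios scaling (-0.49, adjusted p = 0.0324) and array weights (-0.34, adjusted p = 0.0272). Col5a3, the third type V chain, stood at 33.1, 29.0 and 33.9 FPKM in p53WT and 5.30, 10.7 and 14.4 in p53WT_3dai, and at 29.9, 30.5 and 37.0 in p53KO and 12.3, 5.52 and 4.31 in p53KO_3dai. It fell without overlap by 1.66 and 2.11.

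Of the fibrillar genes below 10 FPKM by group mean, Col11a1, Col11a2 and Col24a1 were called lower in both genotypes, while Col2a1, the cartilage collagen, was in neither (highest library 1.52 FPKM). Col2a1 was called lower in p53WT without p53WT replicate 2 (-0.84, adjusted p = 0.0476), under median-of-ratios scaling (-0.77, adjusted p = 0.0491) and with array weights (-0.76, adjusted p = 0.0425). The p53WT call of Col24a1 was lost without p53WT replicate 1 or 3 or any p53WT_3dai library (adjusted p = 0.0538 to 0.0985). Col27a1, a fibrillar collagen of cartilage and developing tissue, stood at 2.75, 4.85 and 3.08 FPKM in p53WT, 1.89, 1.56 and 2.05 in p53WT_3dai, 3.77, 2.06 and 1.95 in p53KO and 2.45, 1.45 and 2.72 in p53KO_3dai. It was not called in 3dai (-0.66 and -0.15), although quantile normalization (-0.76, adjusted p = 0.0490) and median-of-ratios scaling (-0.95, adjusted p = 0.0131) called it lower in p53WT.

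Fibril-associated collagens, which sit on fibre surfaces or at junctions, were low and mostly fell: of 8 tested, 6 were called lower in each genotype. Col22a1, the collagen of the muscle-tendon junction, stood at 11.4, 9.28 and 22.2 FPKM in p53WT and 19.3, 15.0 and 13.4 in p53KO, and was listed at 0 in 5 of the 6 libraries of 3dai and at 0.399 FPKM in p53KO_3dai replicate 1. Col12a1 stood at 6.40, 9.27 and 16.9 FPKM in p53WT and 1.79, 1.78 and 1.25 in p53WT_3dai, and at 12.2, 10.4 and 10.3 in p53KO and 3.45, 1.66 and 1.06 in p53KO_3dai. Col16a1 stood at 9.78, 12.0 and 13.2 FPKM in p53WT and 0.739, 1.29 and 0.214 in p53WT_3dai, and at 11.3, 11.6 and 11.1 in p53KO and 1.88, 0.190 and 0.438 in p53KO_3dai. All 3 fell in both genotypes with no overlap, Col22a1 by 3.84 and 3.90 on the log2(FPKM + 1) scale (a value that depends on the pseudocount, since p53WT_3dai is at 0), Col12a1 by 2.10 and 2.04 and Col16a1 by 2.89 and 2.86. Col26a1, a short collagen of the last class, stood at 8.10, 5.80 and 7.79 FPKM in p53WT and 1.59, 0 and 2.37 in p53WT_3dai. In p53KO Col26a1 stood at 8.10, 4.84 and 9.20 FPKM and in p53KO_3dai at 0, 0 and 0.337. It fell in both genotypes, by 1.99 and 2.89. Of the genes of these classes under 10 FPKM, Col9a2, Col19a1, Col20a1 and the transmembrane Col23a1 were called lower in both genotypes, and Col28a1 in p53WT. The p53WT call of Col23a1 was lost without p53WT replicate 1 or 3 or p53WT_3dai replicate 1 or 3 (adjusted p = 0.0527 to 0.114). In p53KO Col28a1 was called without p53KO_3dai replicate 1 (-1.19, adjusted p = 0.0287) or p53KO replicate 3 (-1.29, adjusted p = 0.0119), under median-of-ratios scaling and with array weights. Col9a3, Col14a1 and the hemidesmosome collagen Col17a1 were not called in either. Col17a1 was called lower in p53KO without p53KO_3dai replicate 1 (-0.97, adjusted p = 0.0305) and with array weights, and in both genotypes under median-of-ratios scaling. Col9a3 was called lower in p53KO without p53KO replicate 2 (-1.05, adjusted p = 0.0455), under median-of-ratios scaling and with array weights, and in p53WT without p53WT replicate 1 (adjusted p = 0.0403).

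Col8a1, a short chain network collagen made by vessels and other tissues, stood at 4.35, 6.86 and 8.61 FPKM in p53WT and 16.2, 14.9 and 11.6 in p53WT_3dai. In p53KO it stood at 6.44, 8.60 and 6.68 FPKM, and in p53KO_3dai at 12.0, 13.3 and 16.9. Each 3dai library was above each library with no suffix. It rose by 1.03 in p53WT (SE 0.25, adjusted p = 0.00273) and by 0.87 in p53KO (SE 0.25, adjusted p = 0.00849). The p53KO call was lost under quantile normalization (adjusted p = 0.0569), median-of-ratios scaling (0.0781) and with p53KO_3dai replicate 1 alone (0.165). Its partner chain Col8a2 was called lower in both genotypes, from at most 3.25 FPKM, in p53WT not without p53WT replicate 2 or 3 or p53WT_3dai replicate 1 or 2 (adjusted p = 0.0635 to 0.136). Col13a1, a transmembrane collagen of the neuromuscular junction, lies outside the level set for named genes and is given because it was the only other collagen to rise. It stood at 0.974, 0.380 and 0.490 FPKM in p53WT and 8.91, 6.19 and 5.18 in p53WT_3dai, and at 1.30, 0.417 and 1.32 in p53KO and 2.38, 8.11 and 10.5 in p53KO_3dai. It rose by 2.25 and 1.85 on the log2 scale, in p53KO with its lowest 3dai value in replicate 1, and with replicate 1 alone it was not called (adjusted p = 0.22).

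**Figure D2:**
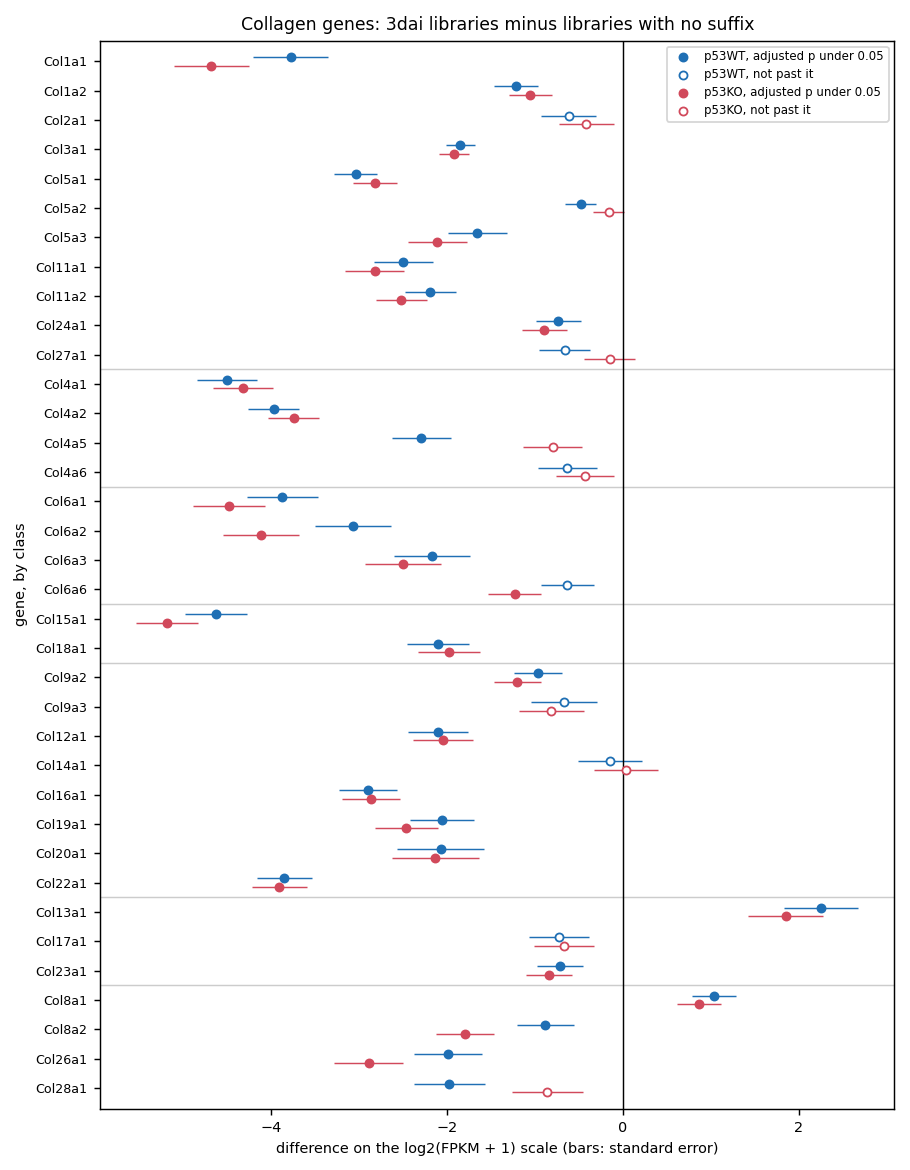
Difference of 3dai from no suffix on the log2(FPKM + 1) scale (x axis) for the 36 collagen genes tested (y axis, by class), p53WT in blue and p53KO in red. Bars are standard errors and filled points are calls; the calls right of 0 are those of Col8a1 and Col13a1, and Col15a1 lies farthest left.

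The make-up of the collagen transcripts differed with these falls. Fibrillar chains made up 51.8% to 57.5% of summed collagen FPKM in the 6 libraries with no suffix, 72.1% to 82.1% in the 6 of 3dai and 62.9% to 68.5% in the 4 of G2. Type IV took 16.6% to 20.8%, 2.46% to 7.19% and 7.13% to 10.9% of the sum. Type VI took 13.2% to 15.8%, 1.05% to 7.64% and 11.9% to 14.2%. Col5a2 alone made up 21.2% to 26.1% of collagen FPKM in 3dai, against 4.21% to 8.59% with no suffix and 5.48% to 7.10% in G2. In each of these 3 classes, and for Col5a2, the range of 3dai lay apart from that with no suffix. These shares are descriptions of each library with no test.

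**Figure D3:**
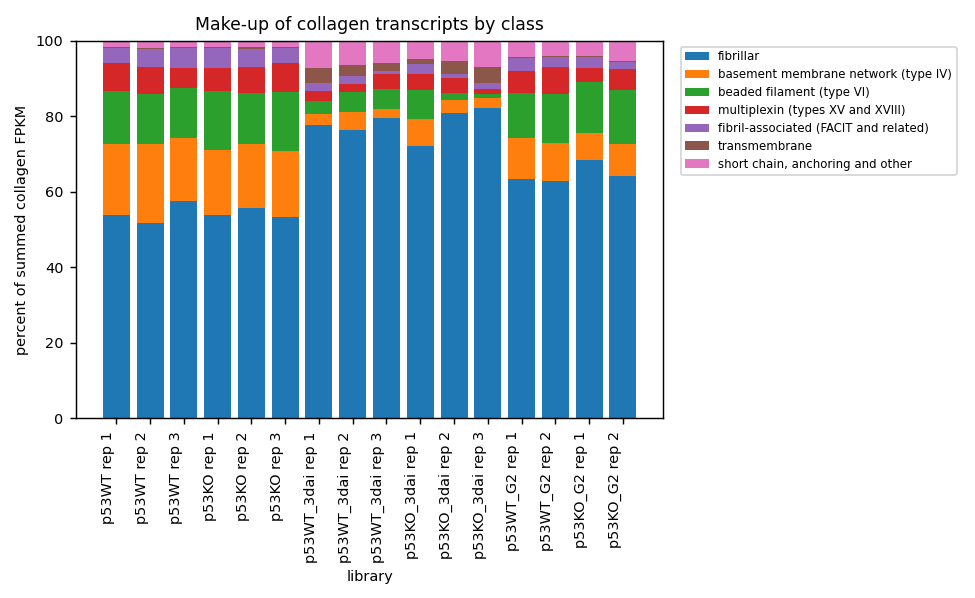
Percent of summed collagen FPKM (y axis, from 0 to 100) taken by each of the 7 structural classes (colours) in each library (x axis). In the 6 libraries of 3dai the fibrillar share reaches 72.1% to 82.1% and the type IV and type VI shares shrink.

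Which collagen genes differed between G2 cells and cells with no suffix? Here Col8a1 rose most, and Col1a2, Col3a1, Col5a3, Col6a3 and Col27a1 were also called higher in both genotypes. In p53WT 9 of 36 were called higher and 1 lower, where 22.1% and 5.39% of all genes tested were. In p53KO 10 were called higher and 5 lower, where 22.5% and 7.06% were. The median difference of the 36 was 0.45 and 0.33, and over all genes 0.33 and 0.31. Without p53WT_G2 replicate 1 or 2 the higher genes of p53WT numbered 5 and 3, and without p53KO_G2 replicate 1 or 2 those of p53KO 6 and 5. Over all 12954 genes the higher calls fell too, from 2868 to 1898 and 1517 in p53WT. In p53KO they fell from 2916 to 1669 and 2311. Median-of-ratios scaling, which takes out most of that common shift, gave 6 higher and 3 lower for p53WT and 5 higher and 8 lower for p53KO. Over all 12954 genes that scaling gave 1642 higher and 1523 lower for p53WT, and 1590 and 1641 for p53KO. Quantile normalization gave 6 higher and 5 lower for p53WT and 7 higher and 9 lower for p53KO, and over all genes 1733 and 1573, and 1798 and 1706. The 6 genes higher in both genotypes were 66.7% of those of p53WT and 60.0% of those of p53KO. Col1a2, Col5a3, Col8a1 and Col27a1 were called higher in both genotypes under both scalings too. These comparisons use the same libraries with no suffix as those of 3dai. Among markers of other cells, 5 and 6 of 9 mature fibre markers were called higher in G2 (24.0 to 111.8 FPKM summed with no suffix, 455 to 1540 in G2) and 6 of 10 Schwann cell markers were lower in each genotype (145 to 159 FPKM in G2). Of the 10 tenocyte markers 1 was higher and 0 lower in p53WT (503 to 582 FPKM in p53WT_G2) and 1 higher and 6 lower in p53KO (at most 257 in p53KO_G2). Fibro-adipogenic markers were lower in 3 and 4 of 9 (83.5 to 221 FPKM in G2), and pericyte markers in 0 and 1 of 10 (498 to 1053 FPKM). Their part in the collagen differences was not tested.

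In G2 Col8a1 stood at 65.9 and 62.5 FPKM in p53WT_G2 and 55.8 and 83.8 in p53KO_G2, above every library of the other 4 groups. It rose 9.72-fold by the means in p53WT (log2 difference 3.14, SE 0.28, adjusted p = 1.48e-06) and 9.64-fold in p53KO (3.08, SE 0.28, adjusted p = 1.66e-06). The call held in each alternative run.

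Among fibrillar chains Col1a2 stood at 399.9 and 448 FPKM in p53WT_G2 and 365 and 415 in p53KO_G2, in p53WT_G2 the highest values of any collagen. It rose by 1.64 in p53WT (SE 0.27, adjusted p = 0.000446) and by 1.45 in p53KO. Col1a1 was at 159 and 146 FPKM in p53WT_G2 and 131 and 92.8 in p53KO_G2 and was not called in either genotype (0.81 and 0.08), p53WT replicate 3 reaching the same level with no suffix. The ratio of Col1a1 to Col1a2 was thus 0.397 and 0.326 in p53WT_G2 and 0.358 and 0.224 in p53KO_G2, below all libraries with no suffix and above all of 3dai. Col3a1 was at 326 and 311 FPKM in p53WT_G2 and 365 and 348 in p53KO_G2. Its rise of 0.72 and 0.64 was not called under median-of-ratios scaling (0.29 and 0.21, adjusted p = 0.291 and 0.451), without either G2 library of its genotype (adjusted p = 0.0568 to 0.105) or, in p53KO, without p53KO replicate 2 (adjusted p = 0.0688).

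Col5a3 was at 84.8 and 95.8 FPKM in p53WT_G2 and 81.4 and 117 in p53KO_G2, above all other libraries. It rose by 1.47 (SE 0.37, adjusted p = 0.00858) and 1.57 (SE 0.37, adjusted p = 0.00560), and each call was lost without replicate 2 of the G2 group (adjusted p = 0.0796 and 0.0616). Col5a1 was at 54.6 and 51.9 FPKM in p53WT_G2 and 61.0 and 77.9 in p53KO_G2, and Col5a2 at 99.2 and 105 and at 118 and 128. Both chains were called higher in p53KO alone (0.81 and 0.76), and neither call held under median-of-ratios scaling (0.39 and 0.33) or without p53KO_G2 replicate 2 (adjusted p = 0.205 and 0.0632). That of Col5a1 was also lost without p53KO_G2 replicate 1 or p53KO replicate 1 or 2 (adjusted p = 0.0713 to 0.115). Col27a1 was at 12.4 and 10.1 FPKM in p53WT_G2 and 11.9 and 14.1 in p53KO_G2. It rose by 1.45 in p53WT and by 1.99 in p53KO (SE 0.33, adjusted p = 0.000390), with every G2 library above every other library.

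In type IV the main pair was not called in the fit as reported: Col4a1 was at 113 and 106 FPKM in p53WT_G2 and 58.1 and 78.7 in p53KO_G2, and Col4a2 at 69.6 and 70.6 and at 45.1 and 67.1. Col4a1 lay below every library with no suffix in each genotype, while Col4a2 in p53WT_G2 lay above. In p53KO the difference of Col4a1 was -1.04 (adjusted p = 0.0531), and it was called lower under quantile normalization (-1.28, adjusted p = 0.0104), median-of-ratios scaling (-1.47, adjusted p = 0.00819), the filter at a mean of 5 FPKM (adjusted p = 0.0457) and with only the groups compared (adjusted p = 0.0310). The ratio of the chains was 1.17 to 1.62 in the 4 G2 libraries, below the 2.22 to 2.83 of the libraries with no suffix. Col4a5 was at 12.8 and 10.2 FPKM in p53WT_G2 and 12.2 and 12.7 in p53KO_G2 and was called higher in p53KO (1.53, SE 0.37, adjusted p = 0.00658), not in p53WT (1.01), where it was called without p53WT replicate 2 (1.39, adjusted p = 0.00836) and with array weights. Type VI was called for Col6a3 only, at 37.4 and 23.9 FPKM in p53WT_G2 and 31.6 and 29.8 in p53KO_G2 (1.41 and 1.46), and that call was lost under both scalings and without either G2 library in both genotypes (adjusted p = 0.0719 to 0.254). Col6a1 was at 114 and 141 FPKM in p53WT_G2 and 126 and 154 in p53KO_G2, and Col6a2 at 61.6 and 76.9 and at 61.2 and 77.5. Neither was called, although each G2 library lay above each library with no suffix of its genotype.

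The multiplexins went apart. Col18a1 was at 86.3 and 109 FPKM in p53WT_G2 and 54.7 and 75.1 in p53KO_G2, above all libraries of the other groups, and rose in p53WT (1.64, SE 0.39, adjusted p = 0.00600) but was not called in p53KO (0.99). The p53WT call was lost without p53WT_G2 replicate 2 (adjusted p = 0.0743). Col15a1 was at 21.5 and 21.9 FPKM in p53WT_G2 and 10.6 and 26.1 in p53KO_G2. It was called lower in p53KO (-1.48, SE 0.39, adjusted p = 0.00967), a call lost without p53KO_G2 replicate 1 (-0.87, adjusted p = 0.189), and not called in p53WT (-0.83). Both scalings called it lower in p53WT as well (-1.17 and -1.24, adjusted p = 0.0323 and 0.0259).

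Of the fibril-associated genes Col22a1 was at 13.4 and 12.3 FPKM in p53WT_G2 and 6.82 and 5.51 in p53KO_G2, and was called lower in p53KO (-1.23, SE 0.35, adjusted p = 0.0148), a call lost without p53KO replicate 1 or either p53KO_G2 library (adjusted p = 0.0518 to 0.0883). Col12a1 was at 16.2 and 14.3 FPKM in p53WT_G2 and 16.9 and 11.9 in p53KO_G2, and Col16a1 at 9.22 and 9.46 and at 7.79 and 7.73. Neither was called in either genotype, but quantile normalization called Col16a1 lower in p53KO (-1.03, adjusted p = 0.0210). Col26a1 was at 10.1 and 12.3 FPKM and at 11.1 and 12.4, also not called. The remaining calls were of genes under 10 FPKM, named here because the counts are small: Col13a1 and Col14a1 higher in p53WT, Col4a6 higher in p53KO, Col8a2 lower in both, and Col9a2 and Col11a2 lower in p53KO. Of these calls all but that of Col9a2 were lost without at least 1 single library. None of the effects in p53WT and p53KO were shown to differ, since the interaction called 0 of 36 collagen genes (smallest adjusted p = 1).

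**Figure D4:**
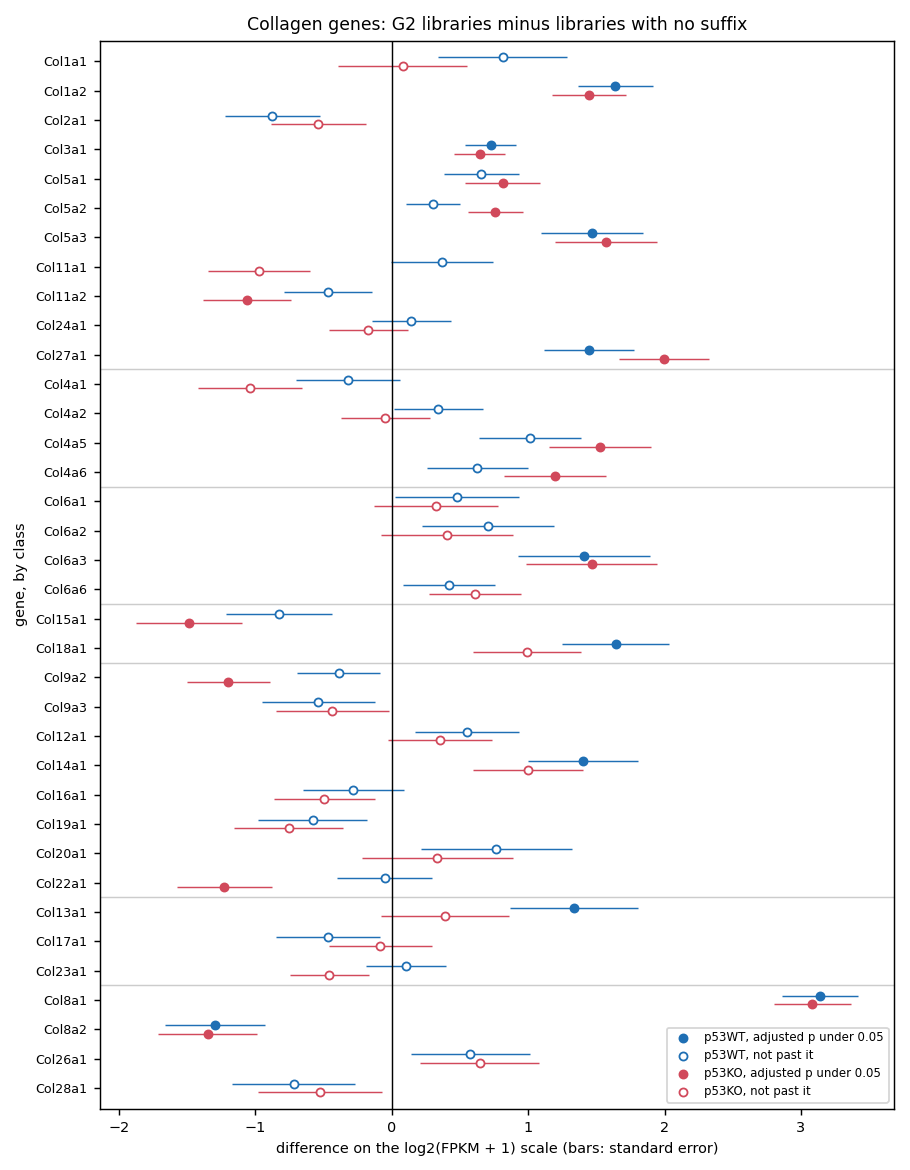
Difference of G2 from no suffix on the log2(FPKM + 1) scale (x axis) for the 36 collagen genes tested (y axis, by class), p53WT in blue and p53KO in red. Bars are standard errors and filled points are calls; Col8a1 lies farthest right at 3.14 and 3.08.

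G2 and 3dai were also compared directly, with libraries that the 2 comparisons above share. In p53WT 28 of 36 collagen genes were called higher in G2 and 0 lower, where 13.9% and 6.7% of all genes tested were. In p53KO 26 were higher and 1 (Col13a1) lower, where 16.1% and 7.1% were. Col1a1 (4.59, SE 0.47, adjusted p = 1.59e-05) and Col6a1 (4.34, SE 0.45, adjusted p = 1.81e-05) differed most in p53WT, followed by Col4a2 (4.31, SE 0.32, adjusted p = 9.39e-07) and Col4a1 (4.18, SE 0.38, adjusted p = 5.34e-06). In p53KO the largest differences were those of Col6a1 (4.80, SE 0.45, adjusted p = 7.93e-06), Col1a1 (4.75, SE 0.47, adjusted p = 1.20e-05), Col6a2 (4.52, SE 0.48, adjusted p = 2.14e-05) and Col6a3 (3.96, SE 0.48, adjusted p = 6.66e-05). Without p53KO_3dai replicate 1 the counts were again 26 and 1, and these 4 genes differed by 5.46, 5.36, 5.24 and 4.52. Markers of other cells were also called higher in G2 than in 3dai (p53WT, then p53KO): tenocyte 8 and 6 of 10, pericyte 9 and 8 of 10, Schwann cell 7 and 6 of 10, fibro-adipogenic 4 and 3 of 9, endothelial 3 and 3 of 8, mature fibre 6 and 8 of 9 and muscle stem cell 5 and 5 of 10, with 0 lower. Their part in the collagen differences was not tested. Col8a1, which rose in each state, was higher in G2 than in 3dai by 2.11 and 2.21.

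**Figure D5:**
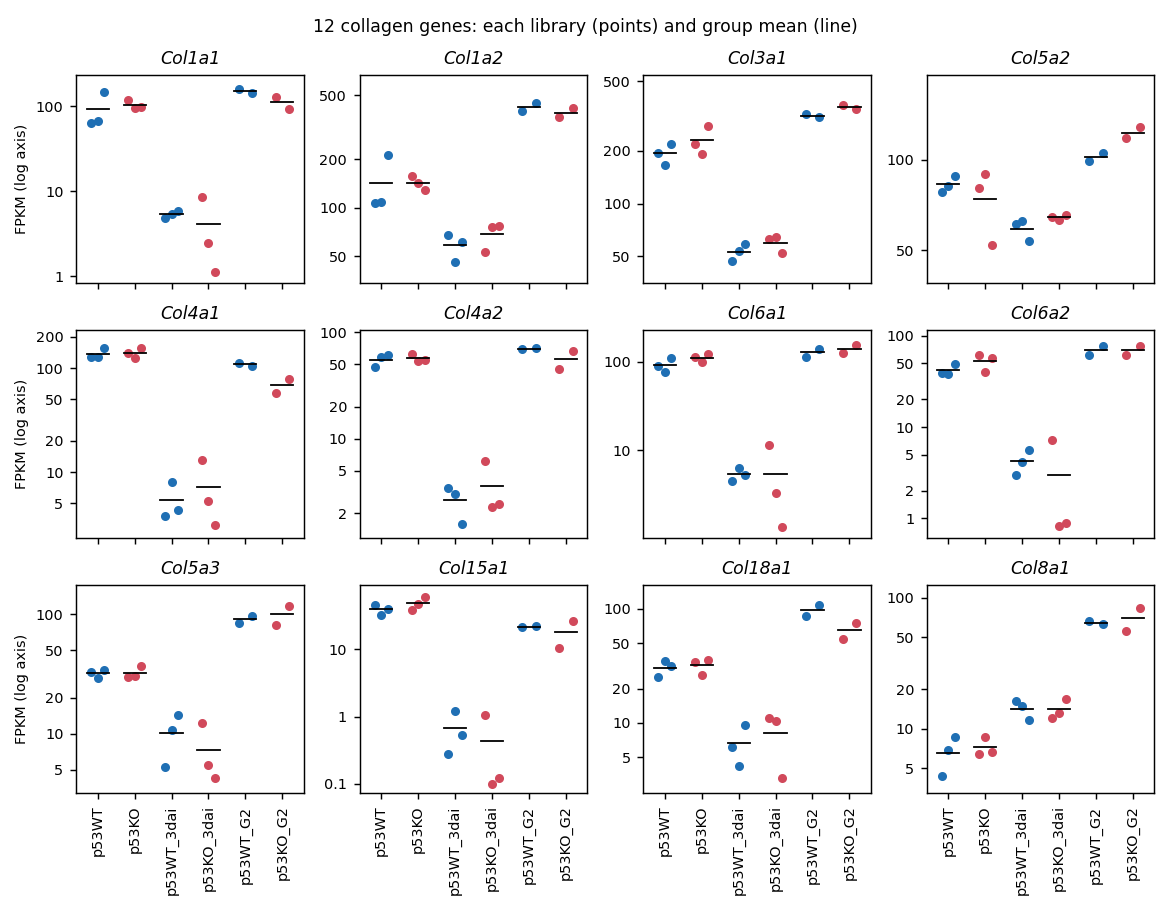
FPKM (y axes, logarithmic, each with its own range) of 12 collagen genes in every library (points; p53WT groups blue, p53KO groups red) with the group mean as a line. By group mean Col8a1 climbs from no suffix through 3dai to G2, while the other genes are lowest in 3dai, narrowly so for Col5a2. The lowest single library of Col5a2 is p53KO replicate 3.

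Did the loss of p53 go with a difference in collagen transcripts? No collagen gene was called between p53KO and p53WT by limma: 0 of 36 in each of the 3 states, where (no suffix, then 3dai, then G2) 0.00772%, 0.0849% and 0.0695% of all genes tested were. At an unadjusted p under 0.05 the counts were 0, 2 and 2 of 36, where 3.95%, 8.89% and 4.87% of all genes were. The 2 in 3dai were Col4a5 (1.09, SE 0.33, adjusted p = 0.304) and Col26a1 (-0.90, SE 0.39, adjusted p = 0.50), and the 2 in G2 were Col11a1 (-1.17, SE 0.41, adjusted p = 0.789) and Col22a1 (-0.96, SE 0.38, adjusted p = 0.923). The median difference of the 36 was 0.16, 0.00 and -0.05 in these states. The libraries of the 2 genotypes did not overlap for 1 gene with p53KO higher and 0 with p53KO lower with no suffix (3.99% and 2.74% of all genes tested), for 2 and 0 in 3dai (5.07% and 6.91%), and for 6 and 13 in G2, where each group holds 2 libraries (15% and 16.1%). In G2 tenocyte markers were also lower in p53KO without overlap in 9 of 10 (503 to 582 FPKM summed in p53WT_G2, at most 257 in p53KO_G2), and pericyte markers in 5 of 10, with 0 of either called. Their part in the collagen values was not tested. With no suffix the differences of the 36 genes lay between -0.72 and 0.60, and those of the abundant chains were 0.27 for Col1a1 (SE 0.42), 0.07 for Col1a2 (SE 0.24), 0.24 for Col3a1 (SE 0.17) and 0.29 for Col6a1 (SE 0.41). The interaction of genotype with state called 0 of 36 for 3dai (smallest adjusted p = 0.804) and 0 for G2, where 0% and 0.0232% of all genes were.

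In 3dai the calls depended on which p53KO_3dai libraries were used. Without replicate 1 Col6a2 (-1.46, adjusted p = 0.00404), Col1a1 (-1.24, adjusted p = 0.0454) and Col6a1 (-0.98, adjusted p = 0.0466) were called lower in p53KO_3dai, and so was the interaction of Col6a2 (-1.77, adjusted p = 0.0197); without any other single library 0 were called. Over all 12954 genes the fit without replicate 1 called 41 higher and 471 lower, against 1 and 10 in the fit as reported. Its interaction called 11 higher and 135 lower, against 0 and 0. These calls of collagen genes rest on replicates 2 and 3, the libraries with 9.81% and 10.1% Mir6236. The part of that transcript was not tested. With replicate 1 as the only p53KO_3dai library, assumed to vary like the other groups, the median of the 36 was 0.38, against -0.01 without it. The values of replicate 1 for these 3 genes lay above all p53WT_3dai libraries and those of replicates 2 and 3 below them, so the genotype groups overlapped. Weighting libraries by their fit called Col4a5 higher (1.04, adjusted p = 0.0395) and Col6a2 lower (-1.16, adjusted p = 0.0432). Over all genes tested that weighting called 106 higher and 698 lower.

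Genes that make, process and bind collagen were described from lists of known members. Of 18 genes of chain hydroxylation, glycosylation and folding, 7 were higher and 5 lower in 3dai in p53WT, and 7 and 7 in p53KO. Of all genes tested 31.8% and 20.9% were in p53WT, and 30.4% and 22.7% in p53KO. Median-of-ratios scaling gave 3 and 7, and 5 and 8. Ppib, a prolyl isomerase of the endoplasmic reticulum, stood at 176, 197 and 155 FPKM in p53WT and 454, 436 and 411 in p53WT_3dai, and at 189, 173 and 158 in p53KO and 465, 538 and 513 in p53KO_3dai. These groups did not overlap, and Ppib rose by 1.30 and 1.54. Fkbp10, a collagen chaperone, rose by 1.61 and 1.31, and P3h4, a partner in lysine hydroxylation, by 1.88 and 1.43. P4ha1 and P4ha2, the catalytic subunits of prolyl hydroxylation, fell by 1.78 and 1.81 in p53WT and by 2.06 and 2.23 in p53KO, and P3h3 fell by 2.00 and 2.23. These genes kept their calls under both scalings and without p53KO_3dai replicate 1.

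Of 11 genes of procollagen processing and cross-linking, 7 were lower and 1 higher in 3dai in each genotype, also without p53KO_3dai replicate 1. The higher gene was Adamts14, which cuts the amino propeptide from procollagen, at 3.17, 2.29 and 1.35 FPKM in p53WT and 23.5, 26.4 and 16.8 in p53WT_3dai, and at 2.01, 2.64 and 1.98 in p53KO and 22.4, 26.2 and 30.1 in p53KO_3dai (2.85 and 3.08). Every library of 3dai lay above every library with no suffix. The cross-linking oxidases Loxl2 (-4.09 and -3.51) and Lox (-2.88 and -3.65) fell. Collagen-binding matrix proteins were lower in 11 of 11 (p53WT) and 10 of 11 (p53KO), led by Prelp (-5.38 and -5.49) and Fmod (-4.52 and -4.88), small proteoglycans. Of that list Kera and Fmod are also tenocyte markers, and Lum and Dcn also fibro-adipogenic markers.

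Of 9 collagen receptors and uptake genes, 6 were lower in p53WT and 5 in p53KO (4 without p53KO_3dai replicate 1), with 0 higher. Calcr, the receptor through which collagen V acts, stood at 54.5, 30.6 and 55.6 FPKM in p53WT and 0.0707, 0.829 and 0 in p53WT_3dai, and at 36.9, 43.1 and 72.2 in p53KO and 0.0195, 0 and 0.232 in p53KO_3dai. It fell in both genotypes (-5.21 and -5.52), without overlap. Calcr is also one of the 10 muscle stem cell markers counted above. Mrc2, an endocytic collagen receptor, fell by 3.22 and 3.68.

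In G2 the hydroxylation and folding list had 8 higher and 0 lower of 18 in p53WT and 8 and 1 in p53KO, against 22.1% and 5.39%, and 22.5% and 7.06%, of all genes. Median-of-ratios scaling gave 4 higher and 3 lower, and 4 and 4, where over all 12954 genes it gave 1642 and 1523, and 1590 and 1641. Called higher were P3h4 (1.96 and 1.68) and Fkbp10 (1.42 and 1.63), that of P3h4 in p53KO not under quantile normalization (adjusted p = 0.0510). Processing and cross-linking genes had 4 higher and 1 lower of 11, and 3 and 1, with Adamts14 at 21.3 and 27.7 FPKM in p53WT_G2 and 16.1 and 19.6 in p53KO_G2 (2.99 and 2.55). Adamts2, a related procollagen protease, rose by 1.42 and 1.04 and Loxl1, a cross-linking oxidase, by 1.05 and 1.06. Neither scaling called Loxl1 in either genotype (adjusted p = 0.0544 to 0.0922) or Adamts2 in p53KO (adjusted p = 0.131 and 0.194). Loxl2 fell by 2.23 and 2.13. Matrix proteins had 1 higher and 2 lower of 11 in p53WT and 0 and 5 in p53KO, where Dcn fell by 1.33 and 2.25. Receptors had 0 higher and 1 lower of 9, and 0 and 2, and Calcr was at 14.3 and 10.0 FPKM in p53WT_G2 and 7.32 and 11.9 in p53KO_G2 (-1.83 and -2.26). Between p53KO and p53WT 0 genes of these 4 lists were called in any state by limma, with 2, 3 and 2 of 49 at an unadjusted p under 0.05, near or below the 3.95%, 8.89% and 4.87% of all genes. Without p53KO_3dai replicate 1, 3 of the 49 were called lower in 3dai: Lox (-2.23, adjusted p = 0.00166), Fmod (-1.29, adjusted p = 0.0352) and the collagen receptor Ddr1 (-0.90, adjusted p = 0.0101). That fit called 471 of all 12954 genes lower, against 10 in the fit as reported.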

How the data were processed

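The authors deposited FPKM per gene, 1 file per library. Per the submitters' processing notes STAR, Cufflinks and Cuffdiff with mm10 were used (versions: not given in the sources used here). Total RNA was made into libraries, per the labels' protocols, with a NEBNext Ultra II Directional kit. Depth is not in the files, so no counting interval is given; all 44 collagen genes carry the status OK in every library. Log2(FPKM + 1) values of genes with at least 1 FPKM in 2 or more of 16 libraries (12954 genes) were fitted over 6 groups at once with limma 3.58.1 (R 4.3.3), a variance trend and no block. P-values were adjusted by Benjamini-Hochberg over all genes, with 0.05 as the limit, for 9 comparisons of 2 groups and 2 interactions. Tables were read with Python 3.11.15, pandas 2.3.3 and numpy 2.4.6 and plotted with matplotlib 3.10.9. The fit was tested on simulated data with 200 of 12954 genes changed, taken from genes above about 5 FPKM. Members called in a comparison with a group mean of at least 10 FPKM are given in every library, with full statistics for up to 4 rises and 4 falls per comparison, and pathway genes of at least 5 FPKM for up to 3. Some shown beyond that number illustrate a list. The members and lists were chosen with earlier results of these data known. Promoters are from RefSeq (GRCm38.p6). The fit with p53KO_3dai replicate 1 as the only library of its group, the collagen share without each library, and the other settings run on pathway and marker lists were chosen after seeing the data.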

Additional observations from a re-analysis of the deposited data

How the results depend on the processing

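Of 1832 repeats of the 136 calls of single collagen genes, 1674 kept the call, 158 lost it and 0 changed sign. Leaving out each library in turn gave 23 to 27 lower and 2 higher for 3dai in p53WT and 25 to 27 and 2 in p53KO. For G2 it gave 3 to 8 higher and 0 to 2 lower in p53WT, and 5 to 9 and 1 to 5 in p53KO; against 3dai, 22 to 25 and 0, and 25 to 26 and 0 to 1. Between genotypes it gave 0 to 3 lower in 3dai, 0 to 1 for its interaction and 0 otherwise. The 3 and the 1 came without p53KO_3dai replicate 1, where 471 of all genes tested were called lower and 135 for the interaction. The collagen share ran from 0.191% to 0.255% in p53WT, 0.242% to 0.259% in p53KO, 0.0431% to 0.0454% in p53WT_3dai, 0.0430% to 0.0490% in p53KO_3dai, 0.370% to 0.375% in p53WT_G2 (0.388% without small RNA and mitochondrial names) and 0.316% to 0.380% in p53KO_G2. A filter at a mean of 5 FPKM tests 19 collagen genes, not 36. It gave 1 higher in 3dai in each genotype, with 18 lower in p53WT and 16 in p53KO. In G2 it gave 0 lower in p53WT and 3 in p53KO. Higher in 3dai in p53KO were 1 under quantile normalization and 1 under median-of-ratios scaling, where 3470 and 3024 of all 12954 genes were. Lower in G2 in p53WT were 3 with no filter (44 collagen genes tested), 5 under quantile normalization, 3 under median-of-ratios scaling, 2 with array weights and 2 with only the groups compared. Over all genes tested (16422 with no filter) 674, 1573, 1523, 997 and 731 were lower, in the same order. In p53KO 9, 8 and 2 were lower under quantile normalization, median-of-ratios scaling and only the groups compared, where 1706, 1641 and 523 of all genes were. There 5 were higher under median-of-ratios scaling, against 1590 of all genes. A pseudocount of 0.1 gave 6 higher and 2 lower, against 2667 and 733 of all genes. The 1 gene lower in G2 than in 3dai in p53KO became 0 with a pseudocount of 0.1, no filter, the mean filter, only the groups compared, the replicate block or replicate 1 alone. Array weights gave 1 higher and 1 lower between genotypes in 3dai, where over all genes tested they gave 106 and 698. The counts over all genes thus also changed with the setting. The cause of these changes was not tested. The labels do not say whether same-numbered libraries are pairs, and the fit was set without a replicate block. Deviations from group means correlated at -0.159 to 0.127 (median -0.0008) in 36 same-numbered pairs and at -0.198 to 0.227 (median 0.0044) in 70 others. In groups of 2 or 3 such deviations sum to 0, so these values cannot tell whether the numbers mark pairs. With the replicate number as a block the counts were 2 and 27 for 3dai in p53WT, 2 and 25 in p53KO, 8 and 1 for G2 in p53WT and 10 and 5 in p53KO, and 0 between genotypes. Groups of 2 and 3 libraries, and an unknown depth, limit what could be detected.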
